A study of Mus musculus with 18 samples.

Results

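The potassium channel genes described here are all genes whose symbol starts with Kcn, found by matching the identifier of each array probe to RefSeq symbols. They comprise the pore-forming subunits, the auxiliary subunits and 2 non-coding transcripts, Kcnq1ot1 and Kcnmb4os1. The match gave 118 of the 41174 probes on the array, which stand for 84 genes. Of these, 76 entered the tests, among 22671 genes tested in all. Their RNA was measured in the cortex, the hippocampus and the brainstem of the brain, in male mice of the 129SV strain. The mice were Nrf2 wild type or Nrf2 knockout (gene symbol Nfe2l2), Nrf2 being the transcription factor of the antioxidant response. The series describes the mice as unstressed. The 6 groups, 3 regions by 2 genotypes, had 3 arrays each, and the labels number the mice 1 to 3 in each group. Total RNA was amplified, labelled with Cy3 and hybridised to 18 Agilent 1-colour arrays.

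Potassium channels let K+ leave or enter a cell along its gradient, and so set the resting potential and end action potentials. Voltage-gated (Kv) channels are tetramers of alpha subunits. The Kcna to Kcnd genes encode Shaker, Shab, Shaw and Shal type subunits, the Kcnq genes the subunits of the M-current, and the Kcnh genes the ether-a-go-go family. Subunits of the Kcnf, Kcng, Kcns and Kcnv genes form no channel of their own and modify Kcnb channels as electrically silent partners. Kcnj genes encode inward rectifiers, Kcnk genes the tandem-pore leak channels, and Kcnma1, Kcnt and Kcnn genes channels gated by calcium or sodium. Kcnab, Kcne, Kcnip and Kcnmb genes encode auxiliary subunits. Nrf2 acts through the antioxidant response element (ARE), a short DNA motif in the promoters of its target genes.

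A level is given throughout as log2 of the processed signal minus the 75th percentile of the same array, so that 0 is the 75th percentile and each unit is a doubling. Levels of different probes depend on the probe and are not set against each other. A difference is called, and is said to have passed the test, where the adjusted p of limma over all 22671 genes was under 0.05. Between 65.3% and 75.1% of an array's spots passed its test for a signal well above background, and 0 spots were saturated. The lowest signal well above background lay between -6.91 and -6.18 on 17 arrays and at -5.50 on knockout brainstem array 1, which also had the fewest such spots. Nfe2l2 checked the genotype labels: its level was 0.79 to 1.03 in wild-type cortex, 0.85 to 1.09 in wild-type hippocampus and 1.10 to 1.39 in wild-type brainstem, against -8.39 to -3.62 on the 9 knockout arrays. The marker lists of each region followed the labels. The mean level of 10 cortex markers was 0.40 to 0.47 on cortex arrays and -2.81 to -2.48 on brainstem arrays, and that of 10 brainstem markers was -1.65 to -1.19 on brainstem arrays and -7.25 to -6.54 on cortex arrays.

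Most potassium channel genes were measurable in all 3 regions. Of the 84 genes, 67 had a probe well above background on all 18 arrays. In all, 76 had a probe well above background on the 3 arrays of at least 1 group and were tested. The remaining 8 genes, among them Kcne1, Kcng3, Kcnj1, Kcnj15, Kcnj5 and Kcnv2, reached this in no group and are not described further. By subfamily, the tested genes were 6 of 6 Kcna, 3 of 3 Kcnab, 2 of 2 Kcnb, 4 of 4 Kcnc, 3 of 3 Kcnd, 4 of 5 Kcne, 6 of 8 silent-subunit genes, 8 of 8 Kcnh and 4 of 4 Kcnip. They were also 4 of 5 Kcnq, 4 of 4 in the group of Kcnma1, Kcnt1, Kcnt2 and Kcnu1, 3 of 3 Kcnmb, 4 of 4 Kcnn, 11 of 14 Kcnj and 8 of 9 Kcnk. Both non-coding transcripts were tested.

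The first comparison asks what loss of Nrf2 does to these genes in each region of the unstressed brain. Kcnv1, which encodes a silent subunit, was the single potassium channel gene called, and it was called only in brainstem, where its signal lay near or below background. Kcnv1 in knockout brainstem had been picked beforehand because of an earlier result of these same data. Its call is therefore a description and no independent support. In cortex 0 of 76 genes were called, in hippocampus 0, and in the mean of the 3 regions 0. Over all genes tested the shares called were 0.0309% in cortex, 0.0176% in hippocampus, 0.0309% in brainstem and 0.0529% in the mean. At an unadjusted limma p under 0.05, 4 potassium channel genes passed in cortex (background 2.19%), 1 in hippocampus (1.33%), 4 in brainstem (2.96%) and 10 in the mean (6.94%). These were Kcnmb1, Kcne4, Kcnab3 and Kcnb2 in cortex, Kcnj2 in hippocampus, and Kcnv1, Kcnj4, Kcnh3 and Kcnh7 in brainstem.

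The knockout differences were small for nearly all members. Within 1.5-fold of wild type were 73 of 76 genes in cortex, 73 in hippocampus and 70 in brainstem, with a median standard error of 0.18 on the log2 scale. The median difference of the 76 genes was 0.02 in cortex, -0.05 in hippocampus and 0.00 in brainstem, against 0.00, 0.02 and 0.00 over all genes. The 3 knockout and 3 wild-type arrays did not overlap for 4 genes in cortex (1 higher, 3 lower), 8 in hippocampus (1 higher, 7 lower) and 7 in brainstem (2 higher, 5 lower). Over all genes such groups made up 6.08% (2.98% higher, 3.1% lower) in cortex, 7.75% (5.05% higher, 2.7% lower) in hippocampus and 6.6% (3.58% higher, 3.03% lower) in brainstem. No difference of the knockout effect between regions was called for a potassium channel gene, and over all genes the share called was 0% in each of these 3 interaction tests. At an unadjusted limma p under 0.05, the interaction tests passed 1 potassium channel gene for hippocampus minus cortex (background 0.834%), 5 for brainstem minus cortex (0.887%) and 4 for brainstem minus hippocampus (0.975%).

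**Figure D1:**
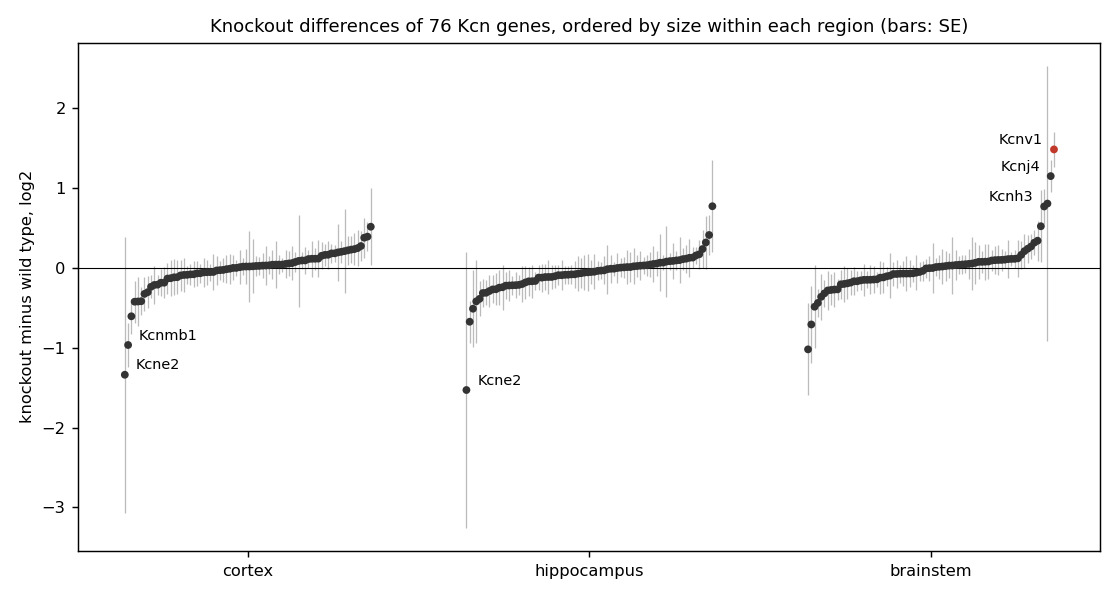
Knockout minus wild-type difference (log2, vertical axis) of each of the 76 tested potassium channel genes in cortex, hippocampus and brainstem, ordered by size within a region, with standard errors from limma over 3 arrays per group; the called gene is red. Most points lie close to 0, Kcnv1 in brainstem is the single called point at 1.48, and Kcne2 has the widest error bars.

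Kcnv1 encodes Kv8.1, a silent subunit of forebrain neurons that modifies Kcnb channels. On the probe that stands for the gene (A_51_P324715), the cortex levels were -2.57, -2.70 and -2.55 in wild-type and -2.73, -2.52 and -2.22 in knockout arrays. In hippocampus they were -3.60, -3.56 and -3.13 in wild-type and -3.52, -3.38 and -3.13 in knockout arrays. In brainstem they were -8.20, -8.48 and -8.02 in wild-type and -6.93, -7.15 and -6.16 in knockout arrays. The genotypes overlapped in cortex and hippocampus, and in brainstem each knockout array was above each wild-type array. Of the brainstem arrays, 0 of 3 wild-type and 1 of 3 knockout arrays, number 3, were well above background. The lowest signal well above background on the wild-type arrays was -6.18, -6.57 and -6.56, and on the knockout arrays -5.50, -6.73 and -6.63. The brainstem values thus rest on signals that were not well above background on 5 of 6 arrays, and no fold is given. The fitted difference was 1.48 ± 0.22 (limma, adjusted p = 0.0333), against 0.11 ± 0.22 in cortex and 0.09 ± 0.22 in hippocampus.

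A second Kcnv1 probe (A_52_P302316) did not repeat the separation. Its brainstem levels were -8.50, -8.21 and -6.76 in wild-type and -7.82, -6.93 and -6.47 in knockout arrays, and the genotypes overlapped. It too was well above background on 0 of 3 wild-type and 1 of 3 knockout arrays. On that probe the cortex levels were -2.71, -3.03 and -2.47 in wild-type and -2.80, -2.95 and -2.27 in knockout arrays. On either probe every cortex array was above every hippocampus array, and every hippocampus array was far above the brainstem arrays. With the mean of both probes the brainstem difference was 1.12 and was not called (adjusted p = 1). The knockout effect in brainstem minus that in cortex was 1.37 ± 0.32 for Kcnv1 and did not pass (adjusted p = 1). The call was also lost with normexp background correction (0.26, adjusted p = 0.994) and on leaving out any 1 of the 3 wild-type arrays or knockout array 1 or 3 (adjusted p up to 0.280). It was kept without knockout array 2 (adjusted p = 0.0133) and with the replicate number as a block (adjusted p = 0.00943).

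Kcnj4 and Kcnh3 came next by unadjusted p in the brainstem comparison, and neither was called. Kcnj4 encodes Kir2.3, a strong inward rectifier of forebrain neurons. Its levels in brainstem were -0.11, -0.01 and 0.32 in wild-type and 1.28, 0.71 and 1.66 in knockout arrays, all well above background. The knockout arrays were all higher, by 1.15 ± 0.20, but the difference did not pass (limma, adjusted p = 0.152). Without knockout brainstem array 2 it did (adjusted p = 0.00768). In cortex the Kcnj4 difference was 0.24 ± 0.20 and in hippocampus -0.18 ± 0.20. Kcnh3 encodes an ether-a-go-go-like subunit (Kv12.2) that is abundant in forebrain. Its brainstem levels were -5.41, -5.16 and -4.81 in wild-type and -3.99, -4.83 and -4.25 in knockout arrays, and the genotypes overlapped by 1 array each. The Kcnh3 difference was 0.77 ± 0.22 in brainstem (adjusted p = 1).

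Kcnv1, Kcnj4 and Kcnh3 were all far higher in cortex and hippocampus than in brainstem, so the makeup of the brainstem samples is given beside them. Drd1, a striatal receptor gene from the lists, was at -4.06, -3.18 and -3.05 in wild-type and -2.11, -3.12 and -0.75 in knockout arrays of brainstem. The array with the highest Kcnv1, Kcnj4 and Drd1 levels among the 6 was the same one, knockout array 3. Kcnh3 was instead highest on knockout array 1. The mean of 5 striatum markers was -1.97 to -1.71 on wild-type and -1.83 to -0.55 on knockout brainstem arrays, with 4 of 5 positive differences and 0 called. Drd1 had the largest difference of the 5 (1.43), and Drd2 had the negative one (-0.10). These 5 were taken from a list of 14 thalamus, habenula, striatum and cerebellum markers. Of those 14 brainstem differences 7 were positive and 7 negative, and 0 were called. The 10 cortex markers gave no call: 4 of 10 differences were positive, and the mean level was -2.75 to -2.48 on wild-type and -2.81 to -2.53 on knockout arrays. The part of forebrain tissue in the Kcnv1, Kcnj4 and Kcnh3 values was not tested. In samples of whole tissue, fewer cells of a type and less RNA per cell cannot be told apart.

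**Figure D2:**
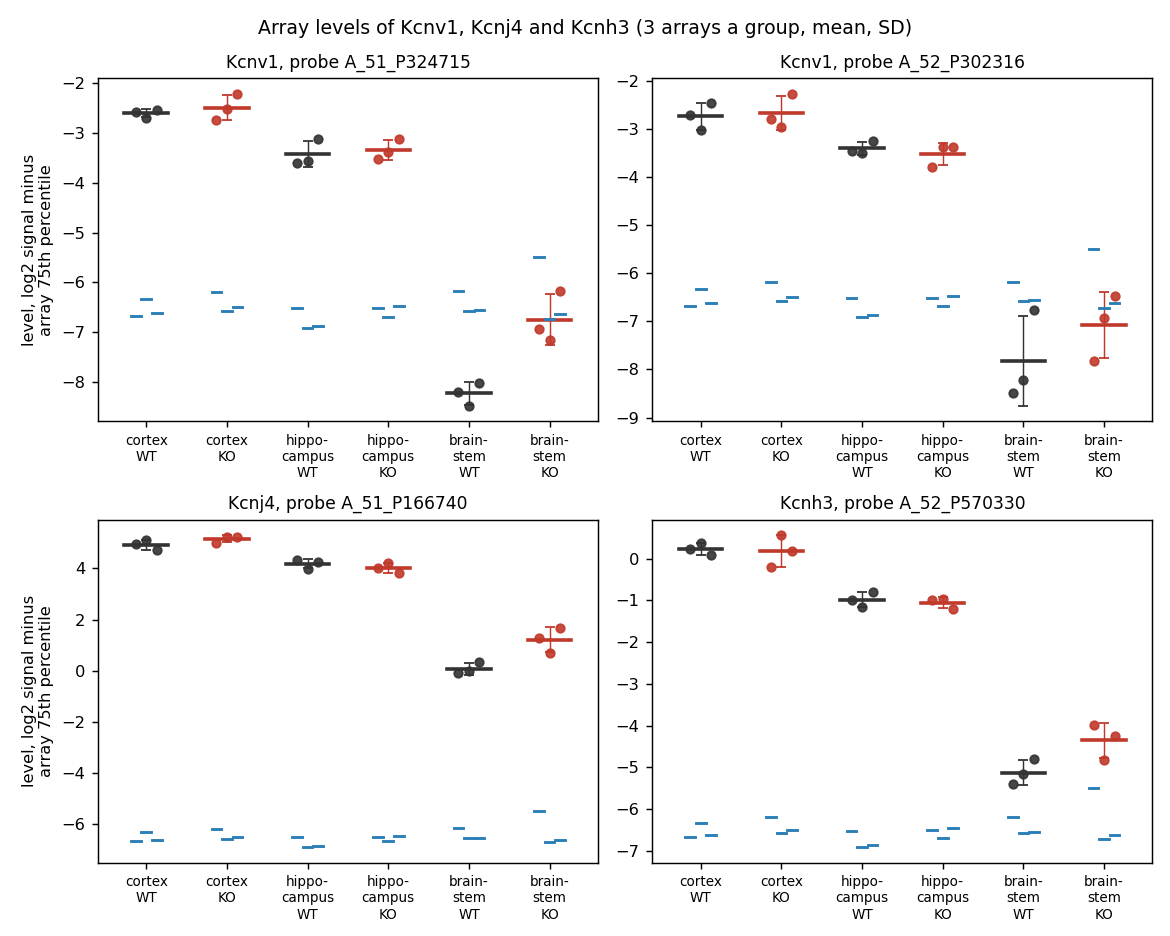
Levels (log2 signal minus the 75th percentile of the array) of both Kcnv1 probes, Kcnj4 and Kcnh3 on each of the 18 arrays, by region and genotype (wild type black, knockout red), with the mean and SD of 3 arrays; the blue ticks mark the lowest signal well above background on each array. Kcnv1 in brainstem lies below the blue ticks on 5 of 6 arrays for the first probe, whereas Kcnj4 and Kcnh3 stay above them throughout.

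Kcnmb1, the smooth-muscle subunit of BK channels, had the smallest p of the members in cortex. Its cortex levels were -6.51, -6.35 and -5.85 in wild-type and -7.92, -6.65 and -7.05 in knockout arrays, and the genotypes did not overlap. Of these arrays 1 of 3 wild-type and 0 of 3 knockout arrays were well above background. The difference did not pass (limma, adjusted p = 1), it was -0.03 with normexp background correction, and no fold is given. Kcnj2, which encodes the inward rectifier Kir2.1, had the smallest p in hippocampus, with levels of -5.84, -6.09 and -5.84 in wild-type and -6.59, -6.72 and -6.48 in knockout arrays. All 3 wild-type and 0 of 3 knockout arrays were well above background there. The Kcnj2 difference did not pass either (adjusted p = 1), it was -0.0037 with normexp, and no fold is given.

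Kcnab3, a beta subunit of Kcna channels, had differences of -0.42 ± 0.17 in cortex, -0.31 ± 0.17 in hippocampus and -0.32 ± 0.17 in brainstem. In hippocampus its levels were -0.34, -0.21 and -0.09 in wild-type and -0.39, -0.48 and -0.71 in knockout arrays, and in brainstem 1.55, 1.54 and 1.64 in wild-type and 1.30, 1.35 and 1.12 in knockout arrays. The genotypes did not overlap in hippocampus and brainstem, and they overlapped in cortex. In the mean of the 3 regions the difference of -0.35 ± 0.10 did not pass (adjusted p = 0.641). Kcne4, an inhibitory auxiliary subunit, was at -4.18, -4.39 and -4.66 in wild-type and -5.38, -4.69 and -4.99 in knockout arrays of cortex, without overlap, and its difference of -0.61 ± 0.22 did not pass (adjusted p = 1). Kcnv1 had the smallest p of the 76 genes in the mean of the 3 regions, with 0.56 ± 0.13 (adjusted p = 0.453). In the interaction tests the smallest p fell on Kcnb2 for hippocampus minus cortex (-0.56 ± 0.25), on Kcnv1 for brainstem minus cortex and on Kcnj4 for brainstem minus hippocampus (1.33 ± 0.29), each with an adjusted p of 1.

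Kcne2, an auxiliary subunit with high expression in choroid plexus, varied most within groups. Its levels in cortex were -0.69, 0.79 and 0.32 in wild-type and -0.45, 0.84 and -3.99 in knockout arrays. In hippocampus they were 2.49, 1.98 and -3.26 in wild-type and 1.92, -2.66 and -2.64 in knockout arrays. In brainstem they were -3.44, -3.63 and -0.68 in wild-type and -2.49, -3.65 and 0.80 in knockout arrays. The same arrays were high or low for Ttr, the transthyretin gene of the choroid plexus: in hippocampus it stood at 3.71, 3.30 and -2.40 in wild-type and 3.21, -2.11 and -1.52 in knockout arrays. The mean level of 15 choroid plexus markers ranged from -4.16 to -1.24 on cortex arrays, -3.46 to 0.53 on hippocampus arrays and -3.39 to -1.04 on brainstem arrays. The Kcne2 knockout differences, -1.34 ± 1.73, -1.53 ± 1.73 and 0.81 ± 1.73 in the 3 regions, were within their errors, and the part of choroid plexus tissue in them was not tested.

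Promoter sequences were searched for the core of the ARE, because it is the motif through which Nrf2 acts. RefSeq promoter windows (GRCm38.p6, 250 bases before to 50 after each start) were given for 61 of the 84 genes, 86 windows in all. The core TGACNNNGC, read on both strands, was found in 16 of the 86 windows (18.6%), against 12.4% of all 32851 windows. The 16 windows belonged to 14 genes, Kcna4, Kcna6, Kcnab1, Kcnab2, Kcnc4, Kcne2, Kcne4, Kcnh5, Kcnj16, Kcnj6, Kcnk12, Kcnn1, Kcnq1ot1 and Kcns3, and all 14 were tested. In the limma fit 0 of the 14 were called in a knockout comparison. At an unadjusted limma p under 0.05, Kcne4 passed in cortex, and Kcne4 and Kcnj16 passed in the mean. Over all genes 2.19% passed at that p in cortex and 6.94% in the mean. The median knockout difference of the 14 genes was -0.03 in cortex, -0.08 in hippocampus and -0.07 in brainstem. Over the 76 potassium channel genes it was 0.02, -0.05 and -0.002, and over all genes 0.001, 0.02 and 0.003. Kcnv1 and Kcnh3 had no window in the table, and the Kcnj4 windows held no core. A match of these letters is a description and not a binding site.

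The stretches around the core are shown for Kcne4 and Kcnj16, whose knockout differences were among the 10 smallest p in the mean of the regions, and for Kcna6, Kcnh5, Kcnj6 and Kcns3, which differed between regions. They read 5′ to 3′ on the strand of the gene, with the core in capitals, at chr1:78816851-78816879 (+ strand) for Kcne4, chr11:111019547-111019575 (+ strand) for Kcnj16, chr6:126740675-126740694 (- strand) for Kcna6, chr12:75177376-75177404 (- strand) for Kcnh5, chr16:94997704-94997732 (- strand) for Kcnj6 and chr12:11150587-11150615 (- strand) for Kcns3, all in GRCm38.p6 and all before the start.
Kcne4: ccggaacacgTGACGATGCatttcttgac
Kcnj16: catcaaggccTGACACTGCtatgctatga
Kcna6: ggcggggcctGCCACGTCAc
Kcnh5: gggggcggtaGCAGCGTCAggtggctgct
Kcnj6: cttcgtgcgcTGACAGCGCggctcagccc
Kcns3: cctgaggaggTGACTCTGCacttgggcct
The core shown starts 50 bases before the start in Kcne4, 28 in Kcnj16, 10 in Kcna6, 62 in Kcnh5, 26 in Kcnj6 and 232 in Kcns3. The windows of Kcnj16 and Kcnh5 hold a further core, not shown, that starts 160 and 250 bases before the same start. For Kcnj6 a further core, not shown, lies in another window, 197 bases before a different start. In the mean of the 3 regions the knockout difference was -0.42 ± 0.13 for Kcne4, -0.16 ± 0.07 for Kcnj16, -0.03 ± 0.06 for Kcna6, 0.04 ± 0.13 for Kcnh5, -0.13 ± 0.12 for Kcnj6 and 0.00 ± 0.06 for Kcns3. None of these 6 differences passed the test.

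The second comparison asks how these genes differ between the 3 regions, in wild-type and in knockout mice separately. In wild-type mice 31 of 76 potassium channel genes were called between hippocampus and cortex, 4 higher and 27 lower in hippocampus, against 17.2% (6.78% higher, 10.4% lower) of all genes. Between brainstem and cortex 45 were called, 20 higher and 25 lower in brainstem, against 35.8% (19.1% higher, 16.6% lower). Between brainstem and hippocampus 53 were called, 26 higher and 27 lower in brainstem, against 41.5% (23% higher, 18.5% lower). In knockout mice 37 were called between hippocampus and cortex (6 higher, 31 lower), against 16.6% (7.18% higher, 9.44% lower). Between brainstem and cortex of knockout mice 51 were called (20 higher, 31 lower), against 35.6% (18.9% higher, 16.7% lower), and between brainstem and hippocampus 53 (27 higher, 26 lower), against 40.6% (21.7% higher, 18.9% lower). The median hippocampus minus cortex difference of the 76 genes was -0.27 in wild-type and -0.40 in knockout mice, against 0.01 in both over all genes.

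The genotypes share no arrays, but they share slides and 1 estimate of the spread per gene. The knockout calls are therefore no independent repeat of the wild-type calls. Mostly the same members were called in both genotypes. Between hippocampus and cortex 31 genes were called in both genotypes with the same sign (4 higher and 27 lower, background 13.1% (5.27% higher, 7.83% lower)), which is all 31 wild-type calls and 83.8% of the knockout calls. Between brainstem and cortex 43 were (18 higher and 25 lower, background 31.3% (16.7% higher, 14.6% lower)), 95.6% of the wild-type and 84.3% of the knockout calls. Between brainstem and hippocampus 50 were (25 higher and 25 lower, background 35.2% (19.5% higher, 15.7% lower)), 94.3% of the calls of either genotype. No gene was called in opposite directions. The cortex arrays shared no slide with the other regions, so slide and region cannot be told apart in the comparisons with cortex. With the slide as a random block, 27 and 30 genes were called between hippocampus and cortex in wild-type and knockout mice, and 42 and 46 between brainstem and cortex. Slide 2 held a brainstem and a hippocampus array of each genotype, and on it 49 of the 50 genes kept their sign in both genotypes. These arrays were part of the fit that called the 50 genes, so this is a description and no separate support.

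**Figure D3:**
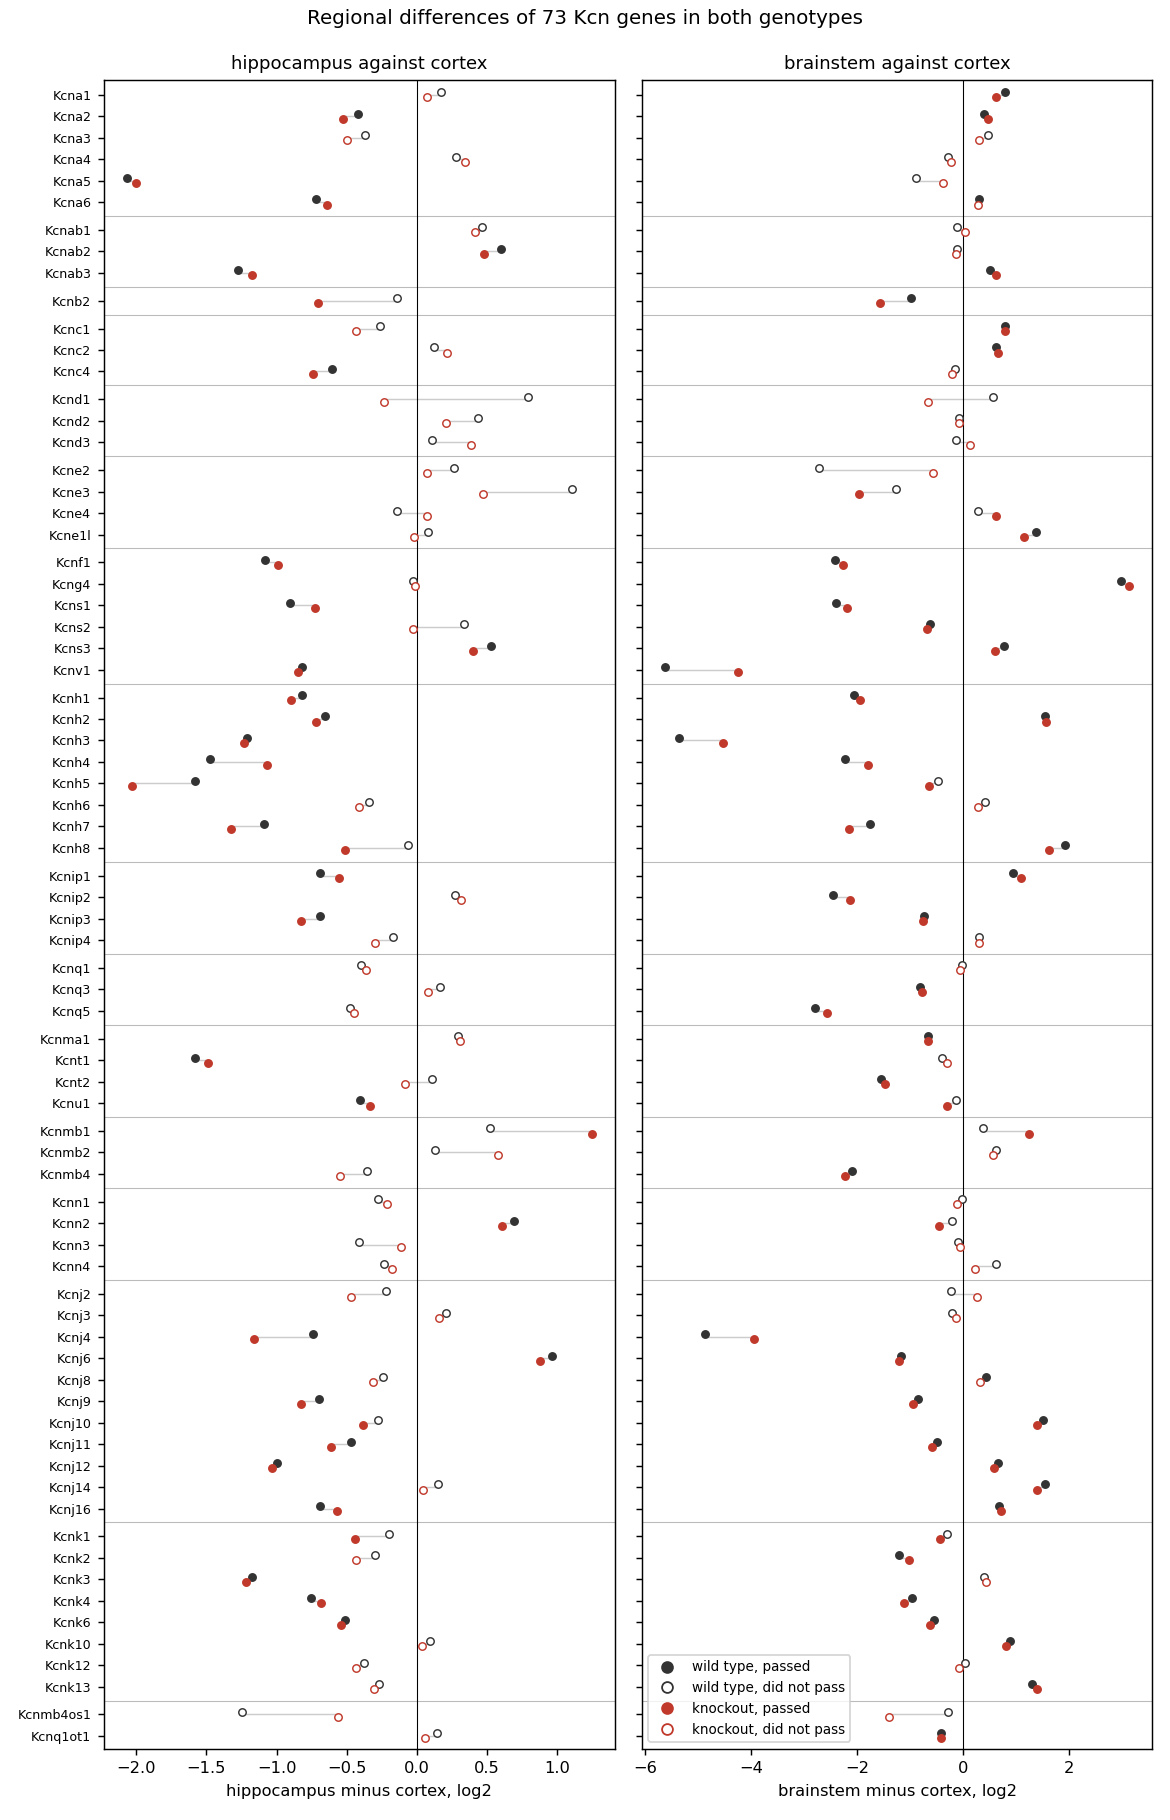
Difference between hippocampus and cortex (left) and between brainstem and cortex (right), in log2, for 73 of the 76 tested potassium channel genes by subfamily, in wild-type (black) and knockout mice (red); filled points passed the test (limma, adjusted p under 0.05, 3 arrays per group). The pair of points of a gene mostly lie close together, and in the right panel Kcnv1, Kcnh3 and Kcnj4 are furthest to the left and Kcng4 furthest to the right.

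Kcna genes encode Shaker-type subunits that sit at axon initial segments, juxtaparanodes and terminals. Kcna1 and Kcna2, which form the axonal low-threshold channels, were highest in brainstem. Kcna1 stood at 6.0, 5.78 and 5.67 in wild-type and 5.64, 5.65 and 5.93 in knockout arrays of brainstem and at 5.16, 5.05 and 4.89 in wild-type and 5.51, 5.11 and 4.76 in knockout arrays of cortex. The regions did not overlap, and the brainstem minus cortex difference was 0.79 in wild-type and 0.62 in knockout mice (SE 0.17, adjusted p = 0.0025 and 0.0124). For Kcna2 it was 0.39 in wild-type and 0.47 in knockout mice (SE 0.12). Kcna2 was also lower in hippocampus than in cortex (-0.42 in wild-type and -0.53 in knockout mice). The Kcna5 levels, of a subunit also expressed in glia, were -1.70, -1.82 and -0.88 in wild-type and -0.97, -1.86 and -1.51 in knockout arrays of cortex and -3.64, -3.71 and -3.24 in wild-type and -3.74, -2.98 and -3.63 in knockout arrays of hippocampus. Every hippocampus array was below every cortex array, and the difference was -2.07 in wild-type and -2.0 in knockout mice (SE 0.45). The brainstem levels of Kcna5 were -2.74, -2.42 and -1.90 in wild-type and -2.46, -2.50 and -0.54 in knockout arrays, and knockout array 3 was the highest. Kcna6 was lower in hippocampus than in cortex too, with -0.72 in wild-type and -0.64 in knockout mice (SE 0.11). Kcna4 was lower in brainstem than in hippocampus (-0.55 in wild-type and -0.57 in knockout mice, SE 0.18), and Kcna3 was called in no comparison.

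Of the Kcnab genes, whose beta subunits bind Kcna tetramers, Kcnab2 was higher in hippocampus and Kcnab3 lower. The Kcnab2 levels were 3.84, 3.65 and 3.81 in wild-type and 3.74, 3.45 and 3.86 in knockout arrays of hippocampus and 3.18, 3.08 and 3.24 in wild-type and 3.14, 3.29 and 3.17 in knockout arrays of cortex, without overlap. The difference was 0.60 in wild-type and 0.48 in knockout mice (SE 0.11). For Kcnab3 the hippocampus minus cortex difference was -1.28 in wild-type and -1.17 in knockout mice (SE 0.17), while brainstem was above cortex by 0.51 in wild-type and 0.61 in knockout mice. Kcnab1 was called once, between brainstem and hippocampus of wild-type mice (-0.59 ± 0.21, adjusted p = 0.0384).

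Kcnb2, which encodes a Shab-type delayed rectifier, was lowest in brainstem. Its levels were -4.60, -4.58 and -3.82 in wild-type and -4.69, -4.27 and -4.66 in knockout arrays of brainstem and -3.44, -3.33 and -3.29 in wild-type and -2.94, -3.14 and -2.81 in knockout arrays of cortex. Every brainstem array was below every cortex array, and the difference was -0.98 in wild-type and -1.58 in knockout mice (SE 0.18, adjusted p = 0.000539 and 6.94e-06).

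Kcnc genes encode the Shaw-type subunits of fast-spiking neurons. Kcnc2 stood at 2.25, 2.28 and 1.96 in wild-type and 2.25, 2.21 and 1.91 in knockout arrays of brainstem and at 1.63, 1.59 and 1.44 in wild-type and 1.35, 1.53 and 1.54 in knockout arrays of cortex. The difference was 0.61 in wild-type and 0.65 in knockout mice (SE 0.13, adjusted p = 0.00161 and 0.000975). Kcnc4 was lower in hippocampus than in cortex (-0.61 in wild-type and -0.74 in knockout mice, SE 0.20). Its wild-type call (adjusted p = 0.0478) was lost with quantile normalization (adjusted p = 0.0677) and with the slide as a random block (adjusted p = 0.0666). Of 5 interneuron markers (Erbb4, Lhx6, Pvalb, Sst and Tac1), not all of them specific to fast-spiking cells, 1 was higher and 2 lower in brainstem than in cortex in each genotype. Over all genes 19.1% were higher and 16.6% lower in wild-type mice, and 18.9% and 16.7% in knockout mice. Pvalb, the parvalbumin gene, was at 2.52 to 2.86 in brainstem and 0.90 to 1.54 in cortex. The part of fast-spiking cells in the Kcnc values was not tested.

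Kcnc1 was the single member whose probes were called in opposite directions, out of 21 members with several tested probes. The probe that stands for the gene (A_52_P867058) was at 2.01, 2.10 and 2.48 in wild-type and 2.05, 2.04 and 2.86 in knockout arrays of brainstem and at 1.46, 1.0 and 1.76 in wild-type and 1.75, 1.24 and 1.58 in knockout arrays of cortex. A second probe (A_52_P592305) was likewise higher in brainstem, with 2.29, 2.12 and 1.51 in wild-type and 2.15, 2.12 and 1.57 in knockout arrays, against 0.92, 1.02 and 0.60 in wild-type and 1.0, 1.09 and 0.57 in knockout arrays of cortex. The third probe (A_52_P422050) was lower in brainstem, with -0.89, -0.95 and -1.25 in wild-type and -0.58, -0.79 and -1.08 in knockout arrays, against -0.19, -0.08 and -0.37 in wild-type and 0.00, -0.07 and -0.28 in knockout arrays of cortex. Per probe, the brainstem minus cortex difference reached from -0.82 to 1.13 in wild-type and from -0.70 to 1.06 in knockout mice. The direction for Kcnc1 therefore holds for the probe named and not for the gene.

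**Figure D4:**
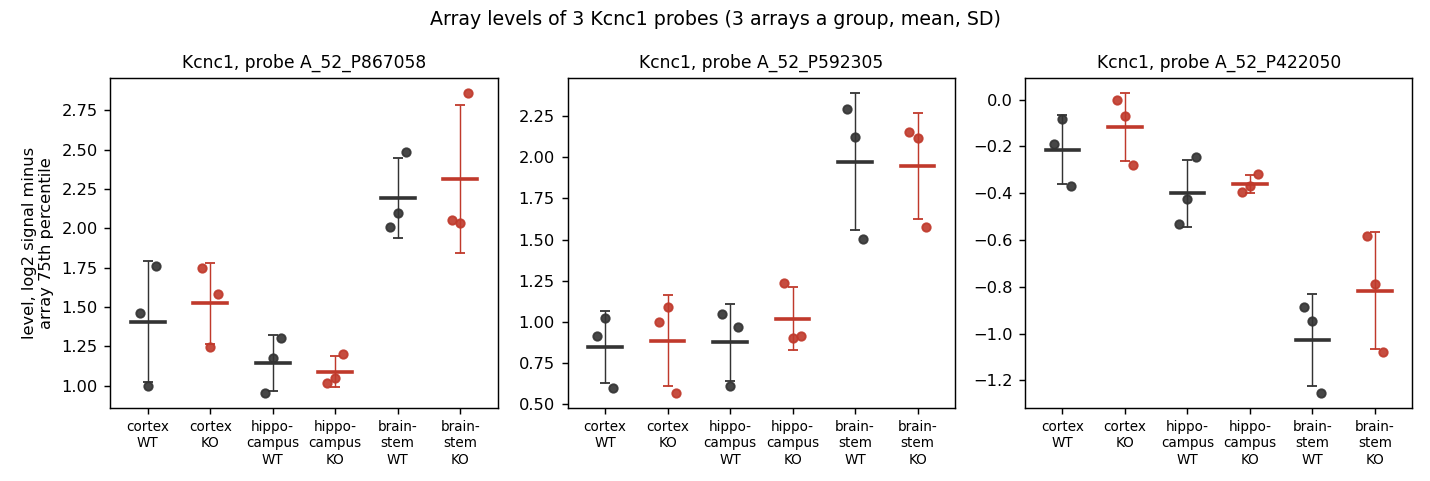
Levels (log2 signal minus the 75th percentile of the array) of the 3 Kcnc1 probes on the 18 arrays, by region and genotype, with the mean and SD of 3 arrays. In brainstem the left and middle probes are above their cortex levels and the right probe is below.

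Of the 3 Kcnd genes, whose Shal-type subunits carry the A-type current of dendrites, none was called in both genotypes in any comparison. The Kcnd2 differences against cortex were 0.44 ± 0.17 in hippocampus and -0.08 ± 0.17 in brainstem of wild-type mice, and Kcnd3 gave 0.11 ± 0.22 and -0.13 ± 0.22. Kcnd2 was called once, between brainstem and hippocampus of wild-type mice (-0.52 ± 0.17, adjusted p = 0.0239). Kcnd1 was near background, above it on 1 of 3 arrays in wild-type cortex and in knockout brainstem, and was not called, with differences from cortex of 0.80 ± 0.48 in hippocampus and 0.55 ± 0.48 in brainstem of wild-type mice. The Kcnip genes encode the calcium-binding KChIP subunits that assemble with Kcnd channels, and 3 of the 4 differed from cortex. Kcnip2 stood at -2.40, -2.54 and -2.27 in wild-type and -1.95, -2.32 and -1.99 in knockout arrays of brainstem and at 0.11, 0.14 and -0.10 in wild-type and -0.19, 0.36 and -0.02 in knockout arrays of cortex, and the difference was -2.45 in wild-type and -2.14 in knockout mice (SE 0.16, adjusted p = 2.39e-08 and 9.63e-08). Kcnip1 was higher in brainstem by 0.94 in wild-type and 1.10 in knockout mice (SE 0.15). In hippocampus Kcnip1 was lower (-0.69 in wild-type and -0.56 in knockout mice). Kcnip3 was lower in both, and its difference from cortex was -0.69 in wild-type and -0.82 in knockout mice for hippocampus and -0.75 in wild-type and -0.76 in knockout mice for brainstem (SE 0.18). Kcnip4 was called between brainstem and hippocampus only, by 0.46 in wild-type and 0.59 in knockout mice (SE 0.12).

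The silent subunits differed between regions in both directions. Kcng4 (Kv6.4) was highest in brainstem: its levels were -0.07, -0.38 and -0.38 in wild-type and -0.19, -0.37 and -0.71 in knockout arrays of brainstem, -3.13, -3.42 and -3.20 in wild-type and -3.81, -3.15 and -3.71 in knockout arrays of cortex and -3.23, -3.36 and -3.25 in wild-type and -3.30, -3.99 and -3.42 in knockout arrays of hippocampus. All 6 brainstem arrays lay above all 12 others. The difference from cortex was 2.98 in wild-type and 3.13 in knockout mice (SE 0.20, adjusted p = 4.19e-08 and 2.68e-08). Kcnv1 went the other way. In wild-type mice, where brainstem was not well above background, Kcnv1 was at least 14.2-fold lower in brainstem than in cortex and at least 8.04-fold lower than in hippocampus (adjusted p = 3.52e-10 and 9.77e-10). These bounds are on the main scale: with normexp the Kcnv1 differences were -1.72 from cortex and -1.16 from hippocampus, in log2 and smaller than the bounds. In knockout mice, with 1 of 3 brainstem arrays above background, the difference from cortex was -4.26 ± 0.22. Kcnf1 stood at 2.54, 2.48 and 2.48 in wild-type and 2.15, 2.44 and 2.63 in knockout arrays of cortex, 1.13, 1.32 and 1.80 in wild-type and 1.34, 1.77 and 1.14 in knockout arrays of hippocampus and -0.05, 0.04 and 0.26 in wild-type and 0.33, 0.17 and -0.10 in knockout arrays of brainstem, with no overlap between regions. Its difference from cortex was -2.42 in wild-type and -2.27 in knockout mice for brainstem and -1.08 in wild-type and -0.99 in knockout mice for hippocampus (SE 0.19).

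Kcns1 had the same order, with a difference from cortex of -2.40 in wild-type and -2.19 in knockout mice for brainstem and -0.90 in wild-type and -0.73 in knockout mice for hippocampus (SE 0.22). Kcns2 was lower in brainstem (-0.63 in wild-type and -0.68 in knockout mice, SE 0.16). Kcns3 (Kv9.3) was instead lowest in cortex, with differences of 0.53 in wild-type and 0.40 in knockout mice in hippocampus and 0.77 in wild-type and 0.61 in knockout mice in brainstem (SE 0.11). Its knockout call between hippocampus and cortex was lost with the array median as scale (0.31, adjusted p = 0.144).

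The promoters of Kcng4 and Kcnj4 are shown because, among members with a RefSeq window, these had the largest brainstem minus cortex differences in the positive and the negative direction. Each run holds the 250 bases before the start on the strand of the gene in GRCm38.p6, chr8:119635681-119635930 (- strand) for Kcng4 and chr15:79505242-79505491 (- strand) for Kcnj4, with GC boxes (GGGCGG on either strand) in capitals.
Kcng4: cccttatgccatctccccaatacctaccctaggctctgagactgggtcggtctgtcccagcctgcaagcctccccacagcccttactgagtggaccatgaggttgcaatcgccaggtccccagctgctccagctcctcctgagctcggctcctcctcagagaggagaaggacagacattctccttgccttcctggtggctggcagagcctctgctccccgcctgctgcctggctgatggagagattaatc
Kcnj4: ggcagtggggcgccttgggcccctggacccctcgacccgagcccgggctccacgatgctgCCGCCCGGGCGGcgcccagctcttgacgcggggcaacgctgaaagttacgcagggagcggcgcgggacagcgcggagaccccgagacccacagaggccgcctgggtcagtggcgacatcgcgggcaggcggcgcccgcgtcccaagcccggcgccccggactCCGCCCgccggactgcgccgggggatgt
The Kcng4 stretch holds 4 CpG dinucleotides and 0 GC boxes, and the Kcnj4 stretch 35 and 3, with 2 of the 3 boxes next to each other. The median over all windows was 6 CpG. A GC box was found in 35.7% of all windows and in 43 of the 86 windows of potassium channel genes. This is a description of the letters only.

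Kcnh genes encode the ether-a-go-go family, and 6 of the 8 were lower in hippocampus than in cortex in both genotypes, as were 7.83% of all genes. Kcnh3 had the largest regional step. Its cortex levels were 0.24, 0.37 and 0.09 in wild-type and -0.20, 0.56 and 0.19 in knockout arrays, its hippocampus levels -0.99, -1.15 and -0.80 in wild-type and -0.98, -0.96 and -1.22 in knockout arrays, and its brainstem levels, given above, lay far lower on all 6 arrays. The brainstem minus cortex difference was -5.36 in wild-type and -4.54 in knockout mice (SE 0.22, adjusted p = 4.17e-10 and 1.94e-09). For hippocampus minus cortex it was -1.21 in wild-type and -1.23 in knockout mice. Kcnh1 (EAG1) was lower in brainstem (-2.07 in wild-type and -1.94 in knockout mice, SE 0.11). For Kcnh4, Kv12.3, the difference from cortex was -2.22 in wild-type and -1.80 in knockout mice for brainstem and -1.47 in wild-type and -1.07 in knockout mice for hippocampus (SE 0.31). In brainstem Kcnh4 was well above background on 2 of 3 wild-type and 1 of 3 knockout arrays. Kcnh5 stood apart with its lowest levels in hippocampus, -3.68, -3.84 and -3.32 in wild-type and -3.76, -4.17 and -3.51 in knockout arrays, against -1.85, -2.24 and -1.99 in wild-type and -1.36, -2.10 and -1.88 in knockout arrays of cortex. The Kcnh5 difference was -1.58 in wild-type and -2.03 in knockout mice (SE 0.23).

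Kcnh2 (ERG1) and Kcnh8 were higher in brainstem than in the other regions. Kcnh2 stood at 1.42, 0.72 and 0.69 in wild-type and 1.22, 0.86 and 0.80 in knockout arrays of brainstem and at -0.57, -0.42 and -0.82 in wild-type and -0.76, -0.25 and -0.77 in knockout arrays of cortex, and its difference was 1.55 in wild-type and 1.56 in knockout mice (SE 0.21, adjusted p = 5.18e-05 and 4.99e-05). Kcnh8 stood at -3.09, -3.04 and -3.09 in wild-type and -3.41, -3.0 and -3.03 in knockout arrays of brainstem and at -5.18, -5.09 and -4.71 in wild-type and -4.41, -4.84 and -5.05 in knockout arrays of cortex, with a difference of 1.92 in wild-type and 1.62 in knockout mice (SE 0.17). The brainstem arrays of either gene lay above all cortex arrays. Kcnh7 was lower in brainstem than in cortex (-1.76 in wild-type and -2.16 in knockout mice, SE 0.18). On knockout brainstem arrays Kcnh7 was well above background on 2 of 3. Kcnh6 was higher in brainstem than in hippocampus by 0.75 in wild-type and 0.68 in knockout mice (SE 0.16) and was not called against cortex.

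**Figure D5:**
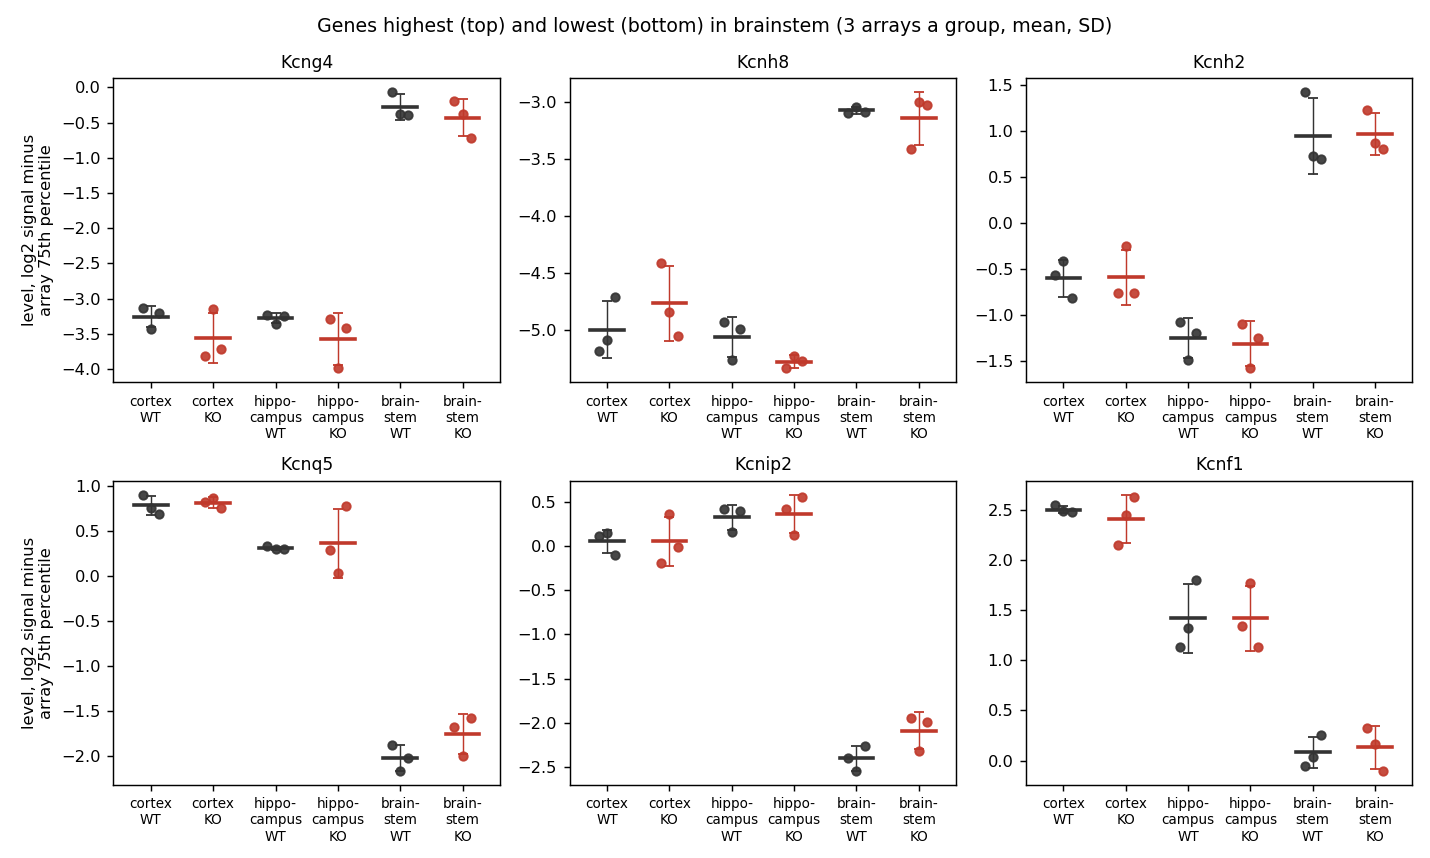
Levels (log2 signal minus the 75th percentile of the array) of Kcng4, Kcnh8 and Kcnh2, which were highest in brainstem, and of Kcnq5, Kcnip2 and Kcnf1, which were lowest there, on the 18 arrays with the mean and SD of 3 arrays per group (wild type black, knockout red). In each panel the 6 brainstem arrays lie apart from the 12 others, and the genotypes overlap within regions.

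Of the Kcnq genes, whose subunits carry the M-current that limits repetitive firing, Kcnq5 and Kcnq3 were lower in brainstem and none was called between hippocampus and cortex. Kcnq5 stood at -1.87, -2.16 and -2.02 in wild-type and -1.67, -2.0 and -1.58 in knockout arrays of brainstem, 0.90, 0.76 and 0.69 in wild-type and 0.82, 0.86 and 0.75 in knockout arrays of cortex and 0.33, 0.30 and 0.30 in wild-type and 0.28, 0.03 and 0.78 in knockout arrays of hippocampus. All brainstem arrays were far below the others. The difference from cortex was -2.80 in wild-type and -2.56 in knockout mice (SE 0.16, adjusted p = 6.91e-09 and 1.73e-08). Kcnq3 was lower (-0.82 in wild-type and -0.78 in knockout mice, SE 0.15), and 2 of 3 knockout brainstem arrays were well above background for it. Kcnq1 was called in no comparison.

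Among the Kcne genes, whose single-span subunits tune Kv channels, Kcne1l was higher in brainstem by 1.37 in wild-type and 1.14 in knockout mice (SE 0.18, adjusted p = 3.47e-05 and 0.000198). Its levels were 0.93, 1.06 and 1.22 in wild-type and 0.77, 1.04 and 1.51 in knockout arrays of brainstem and -0.61, -0.41 and 0.11 in wild-type and 0.13, -0.07 and -0.15 in knockout arrays of cortex, and the regions did not overlap. Kcne3 was lower in brainstem than in hippocampus (-2.37 in wild-type and -2.43 in knockout mice, SE 0.52), with 1 of 3 brainstem arrays of each genotype well above background. Kcne2 passed in no region comparison, with standard errors of 1.73. Kcne4 was called once, between brainstem and cortex of knockout mice (0.62 ± 0.22, adjusted p = 0.0406).

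Of the large-conductance channels opened by calcium or sodium, Kcnma1 and Kcnt2 were lowest in brainstem and Kcnt1 in hippocampus. Kcnma1, the pore of the BK channel, stood at -1.03, -1.19 and -1.21 in wild-type and -1.12, -0.99 and -1.54 in knockout arrays of brainstem and was lower than in cortex (-0.67 in wild-type and -0.67 in knockout mice, SE 0.15). Its neuronal beta subunit Kcnmb4 showed a larger step: the levels were 2.61, 2.71 and 2.82 in wild-type and 2.33, 2.78 and 3.32 in knockout arrays of brainstem and 4.69, 4.80 and 4.95 in wild-type and 5.18, 4.93 and 5.0 in knockout arrays of cortex. The Kcnmb4 difference was -2.10 in wild-type and -2.23 in knockout mice (SE 0.18, adjusted p = 5.24e-07 and 3.08e-07). Of the sodium-activated channels, Kcnt1 (Slack) was lowest in hippocampus, at 2.22, 2.53 and 2.76 in wild-type and 2.56, 3.26 and 2.08 in knockout arrays against 4.10, 4.25 and 3.92 in wild-type and 4.40, 4.14 and 3.82 in knockout arrays of cortex, a difference of -1.58 in wild-type and -1.49 in knockout mice (SE 0.24). Kcnt2 (Slick) was lower in brainstem (-1.55 in wild-type and -1.47 in knockout mice, SE 0.17). Kcnu1, the sperm channel, was lower in hippocampus (-0.40 in wild-type and -0.33 in knockout mice, SE 0.11), and its knockout call (adjusted p = 0.046) was lost without the filter on dim probes (adjusted p = 0.0846). Kcnmb1, not well above background in knockout cortex, was called against cortex in knockout mice only, higher in hippocampus (limma, adjusted p = 0.00646) and in brainstem. Its hippocampus minus cortex difference in knockout mice was 0.05 with normexp. Kcnmb2 was called in no comparison.

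The Kcnn genes encode the small-conductance calcium-activated channels of the afterhyperpolarization. Kcnn2 was highest in hippocampus, at 2.96, 2.93 and 2.98 in wild-type and 2.99, 2.89 and 3.27 in knockout arrays, against 2.26, 2.18 and 2.34 in wild-type and 2.57, 2.26 and 2.50 in knockout arrays of cortex. No hippocampus array overlapped with cortex, and the difference was 0.69 in wild-type and 0.61 in knockout mice (SE 0.12, adjusted p = 0.000915 and 0.00263). Kcnn1 and Kcnn3 passed in no comparison. Kcnn4, which is expressed in microglia and blood cells, was called between brainstem and hippocampus of wild-type mice, with 0.86 ± 0.29 (adjusted p = 0.027), and not of knockout mice, with 0.40 ± 0.29. That difference between the genotypes did not pass in the interaction test for Kcnn4 (adjusted p = 1).

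The inward rectifiers were divided. Kcnj10 (Kir4.1) and Kcnj16 (Kir5.1), which together form the potassium-buffering channel of glia, were highest in brainstem. Kcnj10 stood at 5.50, 5.54 and 5.20 in wild-type and 5.27, 5.44 and 5.51 in knockout arrays of brainstem and at 3.89, 3.86 and 3.96 in wild-type and 4.04, 4.18 and 3.82 in knockout arrays of cortex. The brainstem arrays were all higher, by 1.51 in wild-type and 1.39 in knockout mice (SE 0.12, adjusted p = 1.64e-07 and 3.86e-07). Kcnj16 was higher in brainstem by 0.68 in wild-type and 0.72 in knockout mice (SE 0.12). In hippocampus Kcnj16 was lower than in cortex (-0.69 in wild-type and -0.57 in knockout mice). Kcnj14 (Kir2.4) was higher in brainstem by 1.54 in wild-type and 1.39 in knockout mice (SE 0.17). All 12 oligodendrocyte and myelin markers were higher in brainstem than in cortex in both genotypes, while 5 of 10 astrocyte markers were higher and 2 lower in wild-type, and 4 higher and 2 lower in knockout mice. Over all genes 19.1% were higher and 16.6% lower in wild-type mice, and 18.9% and 16.7% in knockout mice. The mean level of the myelin markers was 3.67 to 3.95 on brainstem and 2.48 to 2.68 on cortex arrays. Their part in the Kcnj10 and Kcnj16 values was not tested.

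Kcnj4 was lowest in brainstem. Its levels were 4.96, 5.10 and 4.72 in wild-type and 5.01, 5.24 and 5.24 in knockout arrays of cortex and 4.33, 3.99 and 4.23 in wild-type and 4.0, 4.20 and 3.81 in knockout arrays of hippocampus, far above the brainstem levels given before. The Kcnj4 brainstem minus cortex difference was -4.86 in wild-type and -3.95 in knockout mice (SE 0.20, adjusted p = 4.64e-10 and 3.12e-09). For hippocampus minus cortex it was -0.74 in wild-type and -1.16 in knockout mice. The G protein-gated subunit gene Kcnj6 (GIRK2) was the one inward rectifier higher in hippocampus, at -1.84, -2.11 and -2.32 in wild-type and -2.04, -2.33 and -2.40 in knockout arrays, against -3.04, -2.94 and -3.17 in wild-type and -3.36, -2.95 and -3.10 in knockout arrays of cortex. The difference was 0.96 in wild-type and 0.88 in knockout mice (SE 0.21), while the brainstem minus cortex difference was -1.17 in wild-type and -1.20 in knockout mice. Kcnj9 (GIRK3) was highest in cortex, and its difference from cortex was -0.69 in wild-type and -0.83 in knockout mice for hippocampus and -0.86 in wild-type and -0.95 in knockout mice for brainstem (SE 0.21). Kcnj11, the pore of neuronal KATP channels, also was highest in cortex, with -0.47 in wild-type and -0.61 in knockout mice for hippocampus and -0.50 in wild-type and -0.59 in knockout mice for brainstem (SE 0.12). Kcnj12 (Kir2.2) was lowest in hippocampus and highest in brainstem, and against cortex its difference was -1.0 in wild-type and -1.03 in knockout mice for hippocampus and 0.66 in wild-type and 0.57 in knockout mice for brainstem (SE 0.19). Kcnj8, the KATP pore of vessels, was higher in brainstem than in hippocampus by 0.67 in wild-type and 0.64 in knockout mice (SE 0.14). Of 11 endothelial and mural markers, 5 were higher and 1 lower in that comparison in wild-type mice, and 4 and 1 in knockout mice. Over all genes 23% were higher and 18.5% lower there in wild-type mice, and 21.7% and 18.9% in knockout mice. The part of these markers in the Kcnj8 value was not tested. Kcnj3 (GIRK1) was lower in brainstem than in hippocampus (-0.43 in wild-type and -0.30 in knockout mice, SE 0.09). Kcnj2 was called once, between brainstem and hippocampus of knockout mice, where it was not well above background on any hippocampus array.

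Of the leak channels, Kcnk13, which is expressed in microglia, was highest in brainstem. It stood at 1.79, 1.52 and 1.49 in wild-type and 1.79, 1.57 and 1.52 in knockout arrays of brainstem and at 0.41, 0.13 and 0.39 in wild-type and 0.36, 0.22 and 0.12 in knockout arrays of cortex, without overlap. The difference was 1.29 in wild-type and 1.4 in knockout mice (SE 0.16, adjusted p = 1.95e-05 and 9.01e-06). The 9 tested microglia markers had mean levels of 0.37 to 0.55 on brainstem and 0.65 to 1.0 on cortex arrays, and 4 of the 9 were lower and 0 higher in brainstem in each genotype. Over all genes 16.6% were lower and 19.1% higher in wild-type mice, and 16.7% and 18.9% in knockout mice. Kcnk10 was higher in brainstem by 0.89 in wild-type and 0.80 in knockout mice (SE 0.14), a call lost with normexp background correction (0.17 and 0.24). Kcnk3 (TASK-1) was lowest in hippocampus, at -1.41, -1.21 and -0.92 in wild-type and -1.34, -1.13 and -1.75 in knockout arrays, against 0.00, -0.01 and 0.00 in wild-type and -0.43, 0.04 and -0.18 in knockout arrays of cortex, with a difference of -1.18 in wild-type and -1.22 in knockout mice (SE 0.17). Kcnk2 (TREK-1) was lower in brainstem (-1.21 in wild-type and -1.02 in knockout mice, SE 0.22). Kcnk4 (TRAAK) and Kcnk6 were highest in cortex: the Kcnk4 difference from cortex was -0.75 in wild-type and -0.69 in knockout mice for hippocampus and -0.97 in wild-type and -1.11 in knockout mice for brainstem. For Kcnk6 these differences were -0.51 in wild-type and -0.54 in knockout mice for hippocampus and -0.54 in wild-type and -0.62 in knockout mice for brainstem (SE 0.10). Kcnk1 (TWIK-1) was called against cortex in knockout mice alone, with -0.44 ± 0.12 in hippocampus and -0.44 ± 0.12 in brainstem, and Kcnk12 was called in no comparison.

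The non-coding Kcnq1ot1, the imprinted antisense transcript of the Kcnq1 locus, had 6 probes, of which 4 were tested. On the probe that stands for it, Kcnq1ot1 was lower in brainstem than in cortex (-0.41 in wild-type and -0.42 in knockout mice, SE 0.14). The call was lost when the 4 probes were averaged (-0.14 and -0.19). Kcnmb4os1 was called in no comparison.

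Over the 3 regions, the members called in both genotypes were sorted by order, and the share of all 22671 genes with the same order is given beside each count. Highest in brainstem, against both other regions, were 17 of the 76 genes (12.9% of all genes), among them Kcna1, Kcna2, Kcnab3, Kcnc1, Kcnc2, Kcne1l, Kcng4, Kcnh2, Kcnh8, Kcnip1, Kcnj10, Kcnj12, Kcnj14, Kcnj16, Kcnk10 and Kcnk13. Kcnc1 is counted there by the probe that stands for it, and another of its probes was called in the opposite direction. Lowest in brainstem were 19 (9.71%), among them Kcnb2, Kcnf1, Kcns1, Kcns2, Kcnv1, Kcnh1, Kcnh3, Kcnh7, Kcnip2, Kcnj4, Kcnj6, Kcnk2, Kcnma1, Kcnt2, Kcnmb4, Kcnq3, Kcnq5 and Kcnq1ot1. Highest in cortex against both were 6 (2.15%), Kcnh4, Kcnip3, Kcnj11, Kcnj9, Kcnk4 and Kcnk6, and lowest in cortex was 1 (0.834%), Kcns3. Lowest in hippocampus were 5 (2.53%), Kcna5, Kcna6, Kcnh5, Kcnk3 and Kcnt1, and highest there were 2 (2.29%), Kcnab2 and Kcnn2. A further 9 genes (14.5%) were called in 1 comparison in both genotypes and 17 (55.1%) in none. All 3 Kcnd genes were among the 17. These counts are those of the main fit, and calls lost under an alternative, as given above for Kcnk10, Kcnq1ot1 and Kcns3, are included.

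The proteins that assemble with potassium channels without carrying a Kcn symbol were counted as a list of 31 genes, of which 29 were tested. In knockout against wild type limma called 0 of 29 in each region and in the mean. At an unadjusted limma p under 0.05 there were 0 in cortex, 1 in hippocampus, 0 in brainstem and 1 in the mean. Over all genes the shares at that p were 2.19%, 1.33%, 2.96% and 6.94%. The median differences of the 29 genes were 0.04, -0.01 and 0.01 in cortex, hippocampus and brainstem. In wild-type mice 5 were higher and 12 lower in brainstem than in cortex (19.1% and 16.6% of all genes), with a median of -0.32 against 0.03 over all genes. Dpp6, an auxiliary subunit of Kcnd channels, was higher in brainstem than in cortex by 1.23 in wild-type and 1.29 in knockout mice (SE 0.10). Its relative Dpp10 was lower in hippocampus (-1.62 in wild-type and -1.49 in knockout mice, SE 0.24). Abcc8, the sulphonylurea receptor that assembles with Kcnj11, was lower in brainstem (-0.40 in wild-type and -0.44 in knockout mice), as Kcnj11 was. Abcc9, which assembles with Kcnj8, was higher there by 0.72 in wild-type and 0.88 in knockout mice. Of the 4 HCN genes, which encode the related hyperpolarization-activated channels, Hcn2 and Hcn4 were higher in brainstem than in cortex. The Hcn2 difference was 1.37 in wild-type and 1.43 in knockout mice (SE 0.17), and the Hcn4 difference 1.04 in wild-type and 1.20 in knockout mice (SE 0.16). In the knockout comparisons limma called 0 of the 4, and 0 had an unadjusted p under 0.05.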

How the data were processed

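RNA levels of 18 samples, 3 per region and genotype, were measured on Agilent 1-colour arrays of 1 design. The deposited intensity values are the processed signals of Feature Extraction 10.7.3.1, background-subtracted and spatially detrended within each array, per the file headers. The deposited files also hold other values per spot, flags for spots well above background, saturated or outlying, which were used as given. The authors' deposited table of normalized intensity values was used as an alternative only: each of its columns held the values of 1 array within 0.3% for most probes, 11 of them the array of their own title and 7 another array. Samples were therefore taken from the scanner files as the labels assign them.

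From these, log2 of the processed signal minus the array's 75th percentile was computed. Control spots and outlier flags were left out and spots of 1 probe averaged. Of 41174 probes, 26690 were named with 1 symbol through RefSeq accessions (GRCm38.p6 tables), 14484 had no symbol and 0 had several. The headers name mm9, so no gene coordinates were taken from the files. Probes were kept if at least 1 group had all of its 3 arrays well above background for them (30066 probes), and the kept probe with the highest mean stood for its gene, so that 22671 genes were tested. One mean per group was fitted to the 18 arrays with limma 3.58.1 in R 4.3.3 (12 residual degrees of freedom), two-sided, with Benjamini-Hochberg adjustment over all genes tested, and the contrasts were taken from that fit. The code was tested on simulated data. The number of arrays limits the precision.

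The main fit did not pair the samples by the numbers 1 to 3. Same-numbered wild-type and knockout arrays deviated together from their group means, with a correlation over genes of 0.28 to 0.59 in cortex, 0.24 to 0.30 in hippocampus and 0.34 to 0.62 in brainstem. These arrays of a region also shared a slide. Between regions, same-numbered brainstem and cortex arrays correlated by 0.38 to 0.71 in wild-type and -0.05 to 0.41 in knockout mice. For hippocampus with cortex this was 0.04 to 0.23 and 0.08 to 0.28. For brainstem with hippocampus it was 0.10 to 0.18 and 0.14 to 0.36. The labels number mice but do not say what a shared number means, nor whether the regions of 1 number come from 1 mouse. The replicate number as a block was therefore an alternative, beside normexp background correction (offset 50), quantile normalization, the array median as scale, no filter, a filter on all 18 arrays, the mean of probes, trend and robust moderation, slide blocks, the deposited table and leaving out each array. Normexp was planned on mean spot signals and was run on the median spot signals that the files hold. The slide as a fixed block between brainstem and hippocampus was chosen after seeing the data. Where a group had no array well above background, its level on each array was replaced by the higher of its own level and the lowest signal well above background, and folds are given as "at least".

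Genes named with values were Kcnv1, each member called in a knockout comparison or with the smallest p there, at most 3 members higher and 3 lower per subfamily and region comparison among those called in both genotypes, members with disagreeing probes and members known to mark a cell type. Other named members complete the counts and were chosen after their values were seen, as were Kcnj4 and Kcnh3 in knockout brainstem. Kcnj13, on that list, was not matched to a probe. The members and gene lists were chosen with earlier results of these data known. Some members are not reported here.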

Additional observations from a re-analysis of the deposited data

How the results depend on the processing

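Kcnv1 in knockout brainstem, the single knockout call, depended on the processing. The count of potassium channel genes called there was 0 with normexp background correction, quantile normalization, the array median as scale, no filter on dim probes, the filter on all 18 arrays (which leaves out Kcnv1), the mean of probes and, as a fit by its titles, the deposited table. The Kcnv1 difference was 0.26 with normexp (limma, adjusted p = 0.994), 1.47 with quantile normalization (0.232), 1.51 with the array median (0.0979), 1.48 without the filter (0.0693) and 1.12 with the mean of probes (adjusted p rounding to 1). In the deposited table it was the same, 1.48 (adjusted p rounding to 1): there 7 columns of cortex and hippocampus hold another array than their title says, and their spread enters the fit, so no dependence of Kcnv1 is read from this lost call. Leaving out 1 array gave 1.19 to 1.68 for Kcnv1 and 0 to 2 called genes, the 2 being Kcnv1 and Kcnj4 without knockout array 2. With the replicate number as a block the difference was 1.48 (adjusted p = 0.00943) and 1 gene was called, and with the slide as a fixed block also 1. The block changed no other count of calls by over 1.5 times. Within slides the Kcnv1 difference was 1.30 on slide 1 and 1.85 on slide 2.

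The counts between regions kept within 1.5 times under every alternative but the deposited table, where 0 potassium channel genes and 0 genes of the other lists were called between hippocampus and cortex in either genotype. With these mistitled columns, 3 called knockout differences between hippocampus and cortex turned positive, Kcnc4 at 0.013, Kcnv1 at 0.044 and Kcnu1 at 0.047. Of 2243 values of single genes under alternatives, 2081 kept direction and call, 158 lost the call, 1 gained it and 3 reversed. Near background, as for Kcnv1, Kcnmb1 and Kcnj2, signal over background limits what can be compared.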

Other observations

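The other voltage-gated channel families were also measured. Of 9 tested sodium channel genes, limma called 0 in each knockout comparison. At an unadjusted limma p under 0.05 there were 0 in cortex and 1 in hippocampus (2.19% and 1.33% of all genes). In brainstem there was 1 and in the mean of the 3 regions 2 (2.96% and 6.94%). In wild-type mice 1 sodium channel gene was higher and 2 were lower in brainstem than in cortex, against 19.1% higher and 16.6% lower of all genes. Of 15 tested calcium channel genes, limma called 0 in each knockout comparison. At an unadjusted limma p under 0.05 there was 1 in cortex, 0 in hippocampus, 0 in brainstem and 1 in the mean. In wild-type mice 3 calcium channel genes were higher and 9 lower in brainstem than in cortex, with a median difference of -0.68 against 0.03 over all genes tested. Cacna1g, a T-type subunit gene, was higher in brainstem by 0.78 in wild-type and 0.61 in knockout mice (SE 0.12), and Cacna1e, the R-type subunit gene, was lower (-1.15 in wild-type and -1.45 in knockout mice, SE 0.27). In brainstem Cacna1e was well above background on 1 of 3 arrays of each genotype.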
